A study of Mus musculus with 8 samples.

Results

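The loci described here are the microRNA genes that received reads in RNA-seq of total RNA from sorted epidermal cells of newborn mice. They were chosen by name and depth: every symbol in the count files that starts with Mir and a digit or with Mirlet, plus the feature miR200primary, with at least 10 raw counts summed over the 8 libraries. This left 116 of 672 microRNA symbols, among 23433 symbols in all. A further 447 microRNA symbols had no counts and 109 had 1 to 9. At the threshold, 3 symbols with exactly 9 counts fell outside and 4 with exactly 10 fell inside. The 116 loci were 113 hairpins, the host transcripts Mir17hg and Mir22hg, and miR200primary. The summed counts chose the members, so the sums are given as a description.

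There were 4 groups of 2 pups. Pups 4 and 6 were transgenic for both pTRE2-200bcl, which places miR-200 behind a doxycycline-responsive promoter, and K14rtTA, the doxycycline-dependent transactivator driven by the keratin 14 promoter. Control pup 3 carried K14rtTA alone and control pup 5 carried pTRE2-200bcl alone, so the controls differed in genotype and neither had the complete system. All pups were on a mixed strain background, were taken at postnatal day 0.5, and came from dams fed doxycycline chow during pregnancy. Hair germ, the early bud of the hair follicle, and interfollicular epidermis (IFE), the skin epithelium between follicles, were sorted from each pup as cells with the K14RFP reporter and high alpha6 integrin, with P-cadherin high for hair germ and low for IFE. Pups are biological replicates, and hair germ and IFE with the same number came from the same pup. Values are given for pups 4 and 6 in this order for transgenics, and for pups 3 and 5 in this order for controls.

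A microRNA is cut from a long primary transcript, first in the nucleus by Drosha with Dgcr8 to a short hairpin and then by Dicer1 to the mature strand, which an Argonaute protein carries to matching messenger RNAs. Target choice rests largely on the seed, bases 2 to 8 of the mature strand. The miR-200 family is known in epithelia for repressing Zeb1 and Zeb2, and miR-205, miR-203 and the let-7 family are well-known microRNAs of the epidermis. A library of total RNA fragments does not capture mature microRNAs as a small-RNA library does. Counts at a hairpin are reads that lie over its short interval, and they can come from a primary transcript or from a host gene around it.

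The following mature sequences, from RefSeq on build GRCm38.p6, are shown for the miR-200 family and for the groups of loci whose counts are given later. Not every member shown need be in the construct. The seed is in capitals. Of the 113 hairpins, 100 had a mature sequence used here, giving 171 mature sequences with 151 different seeds. Only 25 loci shared a seed with another, in 14 seeds. The 3p strands of the miR-200 family have 2 seeds, shown first.
mmu-miR-200b-3p: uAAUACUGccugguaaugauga
mmu-miR-200c-3p: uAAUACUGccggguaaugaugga
mmu-miR-429-3p: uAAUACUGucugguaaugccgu
mmu-miR-200a-3p: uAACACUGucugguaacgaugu
mmu-miR-141-3p: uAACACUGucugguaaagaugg

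The let-7 family had the most loci with one seed, 6 in all, and their sequences show how little the mature strands differ outside it.
mmu-let-7a-5p: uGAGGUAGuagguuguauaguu
mmu-let-7c-5p: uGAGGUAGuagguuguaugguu
mmu-let-7d-5p: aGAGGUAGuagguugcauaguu
mmu-let-7e-5p: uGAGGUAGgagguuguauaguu
mmu-let-7f-5p: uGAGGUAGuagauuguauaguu
mmu-miR-98-5p: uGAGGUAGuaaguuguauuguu

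In the 1 strand shown of each, the 5 counted hairpins of the miR-17-92 cluster carry 3 seeds within a single stretch of 721 bases at chr14:115043671-115044391 on the plus strand, so neighbours cut from the same primary transcript address different targets.
mmu-miR-17-5p: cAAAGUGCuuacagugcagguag
mmu-miR-20a-5p: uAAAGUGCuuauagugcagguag
mmu-miR-18a-5p: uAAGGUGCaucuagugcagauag
mmu-miR-19a-3p: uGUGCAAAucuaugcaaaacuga
mmu-miR-19b-3p: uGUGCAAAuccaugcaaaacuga

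The remaining sequences belong to loci with counts in skin groups described in the results: miR-205, miR-24 and miR-27, which are encoded at separate loci for each family member, the paired miR-221 and miR-222, and the 5-prime strand of miR-3064. The miR-24 strand is the same from Mir24-1 on chromosome 13 and Mir24-2 on chromosome 8.
mmu-miR-205-5p: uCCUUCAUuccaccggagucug
mmu-miR-24-3p: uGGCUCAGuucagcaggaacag
mmu-miR-27a-3p: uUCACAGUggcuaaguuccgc
mmu-miR-27b-3p: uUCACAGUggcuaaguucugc
mmu-miR-221-3p: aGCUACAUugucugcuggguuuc
mmu-miR-222-3p: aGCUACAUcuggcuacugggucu
mmu-miR-3064-5p: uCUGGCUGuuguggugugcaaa

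The libraries held 7109871 to 14039583 counts in genes. A count of 0 in a library allows up to 3 counts, equal to 0.199 to 0.522 CPM (counts scaled to a common library size by TMM), and such limits cover counting error only. Rn45s, the ribosomal RNA precursor, took 29.0% of counts in IFE of transgenic pup 4 and 30.6% in IFE of control pup 3, against 3.56% to 13.0% in the other 6 libraries. Keratinocyte markers were abundant in every library, with summed counts of Krt14, Krt5, Trp63, Itga6 and Cdh3 between 97527 and 333813, but Krt14 and Trp63 were called lower in transgenic than in control IFE (median log2 of the 5 markers -0.81) and none of the 5 was called in hair germ, where 1 had an unadjusted edgeR p under 0.05 and DESeq2 called 1. The hair germ markers Shh, Lhx2 and Sox9 summed to 3286 and 3435 counts in transgenic hair germ, against 891 and 1696 in transgenic IFE. In controls they summed to 3332 and 4123 in hair germ, against 725 and 2343 in IFE. Shh had 487 and 1182 counts in transgenic hair germ, against 356 and 224 in control hair germ. Lhx2 had 861 and 1043 against 425 and 403, while Sox9 went the other way, with 1938 and 1210 against 2551 and 3496. Between genotypes in hair germ edgeR called 0 of the 3 and DESeq2 called 2 (median log2 1.66). For hair germ over IFE, edgeR called Lhx2 and Shh higher in transgenics and 0 of the 3 in controls, where DESeq2 called 1. Markers of immune cells and of melanocytes were among the genes called higher in transgenics. Of the immune markers, 15 of 15 were called higher in transgenic than in control IFE and 3 of 15 in hair germ, with summed counts of 27300 and 36683 in transgenic IFE against 1287 and 1291 in control IFE, and 4636 and 1952 in transgenic hair germ against 1584 and 961 in control hair germ. Of 11 melanocyte markers, 4 were called higher in transgenic hair germ, with sums of 1787 and 1704 against 417 and 493 in control hair germ, and 5 in transgenic IFE, with 1261 and 1969 against 140 and 253 in control IFE.

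The miR-200 primary transcript was the one microRNA locus that differed between transgenic and control cells in the main test, and it was far higher in both populations. The raw counts of miR200primary were 5973 and 6581 in transgenic hair germ, against 2 and 21 in control hair germ. In IFE they were 4499 and 9449 in transgenics, against 22 and 31 in controls. Every transgenic library stood more than 100-fold above every control library of its population in CPM, and the groups did not overlap. As CPM, transgenic hair germ averaged 662 ± 192 and control hair germ 0.786 ± 0.862, while transgenic IFE averaged 660 ± 75.8 and control IFE 3.23 ± 0.848 (SD, n = 2 pups each).

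The log2 fold change of miR200primary was 9.58 (SE 0.51) in hair germ, with an edgeR adjusted p of 2.56e-06, and 7.73 (SE 0.46) in IFE, with an edgeR adjusted p of 5.04e-06. The hair germ value was 8.83 without control pup 3 and 11.77 without control pup 5, and stayed called in both fits. Between the populations of transgenic pups the log2 difference was 0.00 (SE 0.32, edgeR adjusted p = 0.998), hair germ over IFE. In controls it was -1.84 (SE 0.63, edgeR adjusted p = 0.501), and the difference of the transgenic effects was 1.84 (SE 0.70, edgeR adjusted p = 0.504). Those control values rest on few reads: without hair germ of control pup 5 the control difference was -4.05 (edgeR adjusted p = 0.0445) and the difference of effects 4.04 (edgeR adjusted p = 0.0334). Control pup 3, labelled as carrying K14rtTA alone, had 2 counts in hair germ and 22 in IFE. Counts in controls were thus not limited to the pup with pTRE2-200bcl. No source used here gives coordinates for miR200primary, so whether its reads come from the construct, the endogenous gene or both was not tested.

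**Figure D1:**
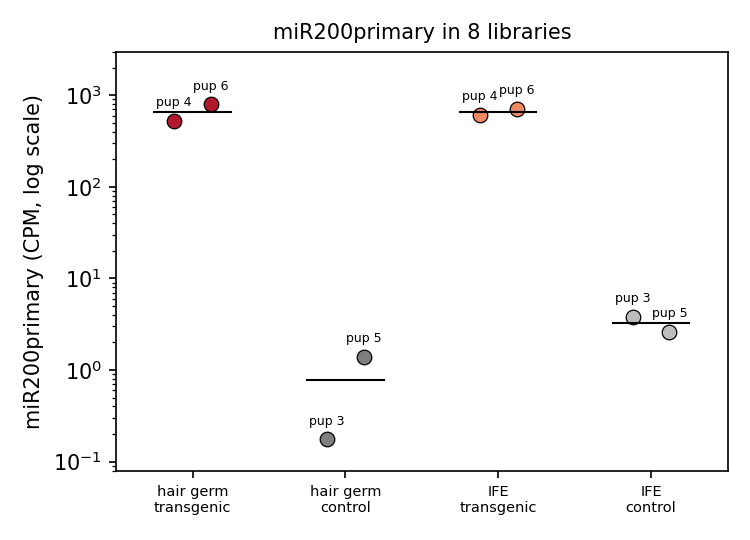
Level of miR200primary in CPM on a log axis, with 1 point per library labelled by pup and a line at the mean of each group of 2 pups. All 4 transgenic libraries sit between 526 and 797 CPM, and all 4 control libraries between 0.176 and 3.83 CPM.

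The annotated hairpins of the family had few or no counts. Mir200a, Mir200b and Mir429, which lie together on chromosome 4, had 0 counts in all 8 libraries, and Mir200c had 2 counts, both in IFE of transgenic pup 6. Whether miR200primary covers any of these hairpins is not known, and reads over 2 counted features can be left out as ambiguous. The 0 counts therefore do not show that no reads lay over these hairpins. Mir141, at chr6:124717914-124717985 on the minus strand, had 15 and 0 counts in transgenic hair germ, against 0 and 0 in control hair germ, and 4 and 1 in transgenic IFE, against 0 and 0 in control IFE. Mir141 counts were therefore seen in 3 of 4 transgenic and 0 of 4 control libraries, but 15 of the 20 came from a single library and the locus did not pass the filter on low counts. Zeb2, a textbook miR-200 target that encodes a repressor of epithelial genes, averaged 25.3 ± 0.489 CPM in transgenic hair germ and 9.29 ± 3.27 CPM in control hair germ, and 232 ± 89.0 CPM in transgenic IFE and 8.62 ± 7.75 CPM in control IFE (SD, n = 2 pups each). Its log2 fold change was 1.46 (SE 0.49, edgeR adjusted p = 0.166) in hair germ and 4.90 (SE 0.54, edgeR adjusted p = 0.000297) in IFE. Its relative Zeb1 was not called, at 2.13 (SE 1.18, edgeR adjusted p = 0.383) in hair germ and 2.53 (SE 0.81, edgeR adjusted p = 0.0943) in IFE. The part of the immune and melanocyte markers in the Zeb2 difference was not tested, and in bulk RNA fewer cells of a type and less RNA per cell cannot be told apart.

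Of the 116 loci, 47 passed the filter on low counts and entered the tests with 14176 genes in all. A locus can pass this filter through the group where it is high. The test of transgenic against control hair germ called 1 of the 47, miR200primary, against 0.952% of all genes (0.762% higher and 0.19% lower in transgenics). That of IFE called the same locus, against 6.34% of all genes (4.99% higher and 1.35% lower). All calls are edgeR adjusted p under 0.05, and miR200primary was higher in both. Hair germ against IFE called 0 of 47 in transgenics, where 4.64% of all genes were called (0.882% higher and 3.76% lower in hair germ), and 0 of 47 in controls, where 0.00705% were. The difference of effects also called 0 of 47, with 0.134% of all genes called. DESeq2 likewise called 0 of 47 in these last 3 comparisons.

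At an unadjusted edgeR p under 0.05, the other 46 tested loci numbered 11 in transgenic against control hair germ, 0 in transgenic against control IFE, 7 in hair germ against IFE of transgenics, 7 in that of controls and 3 in the difference of effects. The same threshold took 17.1%, 17.3%, 18.5%, 8.46% and 8.09% of all genes in these comparisons. The lowest adjusted p among the 46 was 0.104, 0.508, 0.118, 0.528 and 0.348 in the same order (edgeR). Their median log2 fold change was 0.03 in hair germ and 0.03 in IFE for transgenic against control, where the medians of all genes were 0.04 and -0.01. For hair germ against IFE it was 0.92 in transgenics and -0.20 in controls, where the medians of all genes were 0.02 and -0.04. These medians include loci at 0 in a whole group, whose fitted fold changes depend on the prior count.

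Hairpin counts were sparse and uneven between pups. The median hairpin had 36 counts over all 8 libraries, 81 of 113 had under 50, and 12 had 100 or more. The number of hairpins with at least 1 count was 50 and 39 in transgenic hair germ, against 27 and 51 in control hair germ, and 59 and 82 in transgenic IFE, against 45 and 66 in control IFE. The ranges of transgenics and controls overlapped in both populations. Counts stood in all 8 libraries for 5 hairpins (4.42%) and in a single library for 16 (14.2%), with a median of 3 libraries. Among 4086 other symbols with 10 to 200 counts in all, the median was 5 libraries and 2.96% were seen in a single library.

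When a hairpin had at least 10 counts in one pup of a group, the other pup often had none. This held for 101 of 180 such pairs (56.1%), against 34.1% of 7201 pairs among other symbols with 10 to 200 counts and 5.90% of 54461 pairs among all other symbols with at least 10. The median hairpin drew 57.6% of its counts from its highest library, against 46.7% for other symbols with 10 to 200 counts. Among tested loci, the median within-group SD of log2 CPM was 1.48 for the 47 microRNA loci, 0.44 for all genes and 1.34 for the 1304 other genes whose mean level lay between the lower and upper quartile of the 47.

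The populations differed in how the counts were spread over hairpins. The median count of a detected hairpin was 17 and 17 in transgenic hair germ, against 4 and 5.5 in transgenic IFE, and 26 and 20 in control hair germ, against 5 and 9.5 in control IFE. All 4 hair germ values lay above all 4 IFE values. Hairpins with only 1 to 3 counts numbered 2 and 4 in transgenic hair germ, against 27 and 26 in transgenic IFE, and 1 and 1 in control hair germ, against 16 and 8 in control IFE. Among other genes the populations overlapped: the share of detected genes with 1 to 3 counts was 7.32% and 8.27% in transgenic hair germ, against 8.61% and 8.60% in transgenic IFE, and 6.12% and 2.72% in control hair germ, against 8.28% and 4.42% in control IFE. That share was also lower in hair germ than in IFE of each pup, by less than for the hairpins. For hairpins it was 4.0% and 10.3% in transgenic hair germ, against 45.8% and 31.7% in transgenic IFE. In controls it was 3.70% and 1.96% in hair germ, against 35.6% and 12.1% in IFE. Other symbols with at least 10 counts had a median of 1164 counts, against 36 for hairpins. The share was not computed for other symbols with 10 to 200 counts, so the difference is not shown to be particular to hairpins.

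**Figure D2:**
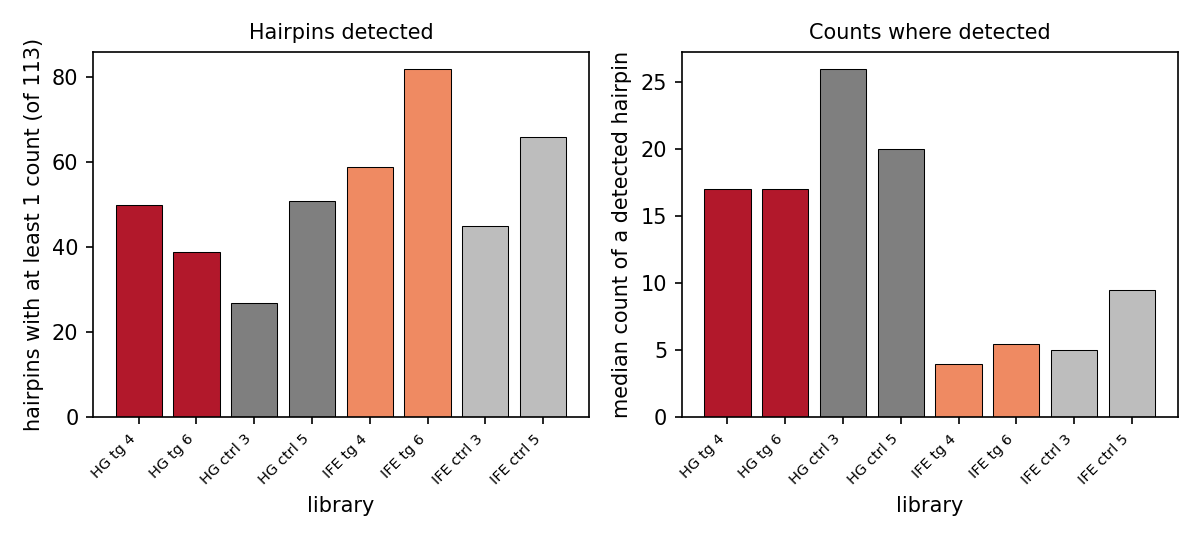
Left, the number of the 113 hairpins with at least 1 count in each library (HG, hair germ; tg, transgenic; ctrl, control; the number is the pup). Right, the median raw count of a detected hairpin, which lies between 17 and 26 in the 4 hair germ libraries and between 4 and 9.5 in the 4 IFE libraries.

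Mir5109 had the highest summed raw count of the hairpins, and its counts were highest in the 3 libraries with the most Rn45s. It had 1049 and 36 counts in transgenic hair germ, against 82 and 0 in control hair germ, and 1985 and 85 in transgenic IFE, against 1528 and 5 in control IFE. Its CPM was 268 in IFE of transgenic pup 4 and 266 in IFE of control pup 3, the libraries with the largest Rn45s share, and 92.3 in hair germ of transgenic pup 4, the library with the next largest at 13.0%. In the remaining 5 libraries it was between 0 and 7.20 CPM. The groups overlapped in every comparison.

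For Mir5109 the log2 fold change of transgenic over control was 3.88 (SE 2.13, edgeR adjusted p = 0.384) in hair germ and 0.05 (SE 1.69, edgeR adjusted p = 0.999) in IFE. The hair germ value was 0.34 without hair germ of transgenic pup 4 and 11.97 without that of control pup 3. Hair germ over IFE was -1.47 (SE 1.73, edgeR adjusted p = 0.727) in transgenics and -5.29 (SE 2.19, edgeR adjusted p = 0.576) in controls. With the pup as a block the same comparisons were called, at -1.29 (edgeR adjusted p = 0.0309) and -5.20 (edgeR adjusted p = 0.00828), as was the difference of effects at 3.92 (edgeR adjusted p = 0.0141). Within every pup Mir5109 was lower in hair germ than in IFE in CPM. Without the 2 IFE libraries rich in Rn45s the direction turned, to 2.96 in transgenics and 2.88 in controls. Hair germ of the same pups stayed in that fit, so it no longer compared within pups. Leaving out IFE of transgenic pup 4 alone gave 2.93 in transgenics, and leaving out IFE of control pup 3 alone gave 2.94 in controls. The files and the annotation give Mir5109 no coordinates, and the part of ribosomal RNA in its counts was not tested further.

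**Figure D3:**
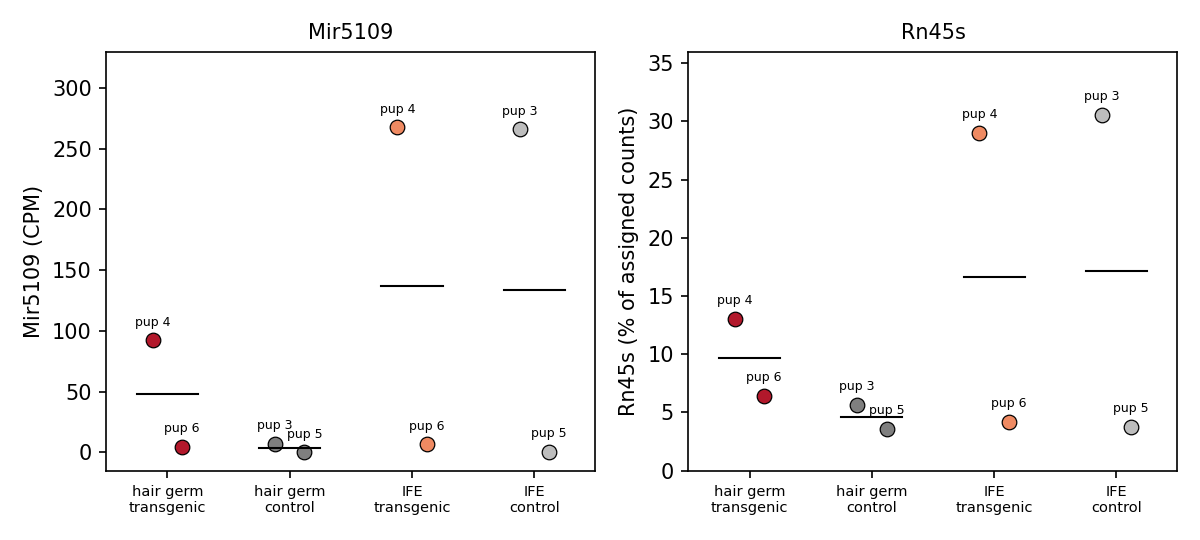
Left, Mir5109 in CPM; right, Rn45s as a percent of assigned counts; 1 point per library, labelled by pup, with a line at the mean of each group of 2 pups. The 3 libraries with the most Rn45s (13.0%, 29.0% and 30.6%) are those with the most Mir5109 (92.3, 268 and 266 CPM).

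Mir17hg is the host transcript of the miR-17-92 cluster, which is known for promoting proliferation. RefSeq places it over 2339 bases at chr14:115044390-115046728 on the plus strand, starting where Mir19b-1 ends. Its exons in GENCODE cover 3536 bases and overlap Mir19b-1. The interval over which it was counted is not known. Mir17hg had 15.1 and 16.0 CPM in transgenic hair germ, against 17.7 and 47.0 in control hair germ, and 21.9 and 35.7 CPM in transgenic IFE, against 35.0 and 59.2 in control IFE. Pup 5 was the highest in both populations, and the hair germ groups did not overlap. The log2 fold change of transgenic over control was -1.07 (SE 0.47, edgeR adjusted p = 0.273) in hair germ and -0.71 (SE 0.45, edgeR adjusted p = 0.508) in IFE. Hair germ over IFE was -0.90 (SE 0.47, edgeR adjusted p = 0.349) in transgenics. None of these passed the threshold, and without hair germ of control pup 5 the hair germ value was -0.19.

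The 5 counted hairpins of the cluster summed to 13 and 31 counts in transgenic hair germ, against 29 and 61 in control hair germ, and to 27 and 75 in transgenic IFE, against 19 and 58 in control IFE. Mir19b-1 held the most, with 0 and 31 counts in transgenic hair germ, against 16 and 42 in control hair germ, and 17 and 20 in transgenic IFE, against 14 and 3 in control IFE. The other 4 were counted unevenly although they lie within 721 bases. Mir17 had 10 and 0 counts in transgenic hair germ, against 13 and 0 in control hair germ, and 6 and 10 in transgenic IFE, against 0 and 10 in control IFE. Mir20a, which shares the seed of Mir17, had 0 and 0 in transgenic hair germ, against 0 and 19 in control hair germ, and 3 and 22 in transgenic IFE, against 0 and 5 in control IFE.

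Mir18 and Mir19a were read almost only in IFE. Mir18 had 3 and 0 counts in transgenic hair germ, against 0 and 0 in control hair germ, and 1 and 11 in transgenic IFE, against 0 and 17 in control IFE. Mir19a had 0 in all 4 hair germ libraries, 0 and 12 in transgenic IFE and 5 and 23 in control IFE. Mir92-1, the remaining hairpin of the cluster, had 0 counts in all 8 libraries, as did all the listed hairpins of the related X-linked cluster. Of the third cluster, inside the replication gene Mcm7 on chromosome 5, Mir25 had 0 and 19 counts in transgenic hair germ, against 0 and 39 in control hair germ, and 0 and 0 in transgenic IFE, against 0 and 6 in control IFE. Mir25 was thus read in pups 5 and 6 alone. Mcm7 itself was lower in transgenic IFE, with 61.0 and 82.7 CPM against 156 and 143 in control IFE (log2 -1.05, SE 0.23, edgeR adjusted p = 0.0186). Of the 16 listed symbols of these clusters, 5 were tested and edgeR called 0 in each comparison, as did DESeq2. At most 1 had an unadjusted edgeR p under 0.05. By comparison, edgeR called 0.00705% to 6.34% of all genes, and 8.09% to 18.5% had an unadjusted p under 0.05. The median log2 fold change of the 5 was -0.51 in hair germ and -0.71 in IFE for transgenic against control, against 0.04 and -0.01 for all genes.

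Mir22hg, host of miR-22, lies at chr11:75461539-75466690 on the plus strand. It had 1.94 and 9.82 CPM in transgenic hair germ, against 23.2 and 14.1 in transgenic IFE, and 5.36 and 7.24 in control hair germ, against 6.62 and 20.5 in control IFE. Hair germ lay below IFE within each of the 4 pups. The log2 difference was -1.72 (SE 0.72, edgeR adjusted p = 0.221) in transgenics and -1.17 (SE 0.69, edgeR adjusted p = 0.659) in controls. The control value was -0.06 without IFE of control pup 5, and the transgenic value was -0.96 without hair germ of pup 4 and -3.28 without that of pup 6. The hairpin Mir22 itself had 0 counts in every library.

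Mir3064 was counted evenly in pups of a group. It lies at chr11:106782693-106782759 on the minus strand, within an annotated exon of a transcript of Ddx5, an RNA helicase that also takes part in microRNA processing. Its counts were 161 and 128 in transgenic hair germ, against 306 and 286 in control hair germ, and 103 and 207 in transgenic IFE, against 86 and 161 in control IFE. As CPM, these were 14.2 and 15.5 in transgenic hair germ, against 26.9 and 19.0 in control hair germ, and 13.9 and 15.6 in transgenic IFE, against 14.98 and 13.7 in control IFE. Control hair germ stood highest and the other 6 libraries lay between 13.7 and 15.6 CPM.

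The log2 fold change of Mir3064 in transgenic over control hair germ was -0.63 (SE 0.39, edgeR adjusted p = 0.442), and that of control hair germ over control IFE was 0.68 (SE 0.39, edgeR adjusted p = 0.650). Ddx5 had 1140 and 958 CPM in transgenic hair germ, against 1119 and 1401 in control hair germ, and 1172 and 1183 in transgenic IFE, against 1286 and 1583 in control IFE. Its log2 fold change was -0.26 (SE 0.22, edgeR adjusted p = 0.572) in hair germ and -0.28 (SE 0.22, edgeR adjusted p = 0.619) in IFE. Per kilobase and summed over libraries, Mir3064 had 21463 raw counts and Ddx5 exons 18454, so the hairpin held 116% of the density of its host.

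**Figure D4:**
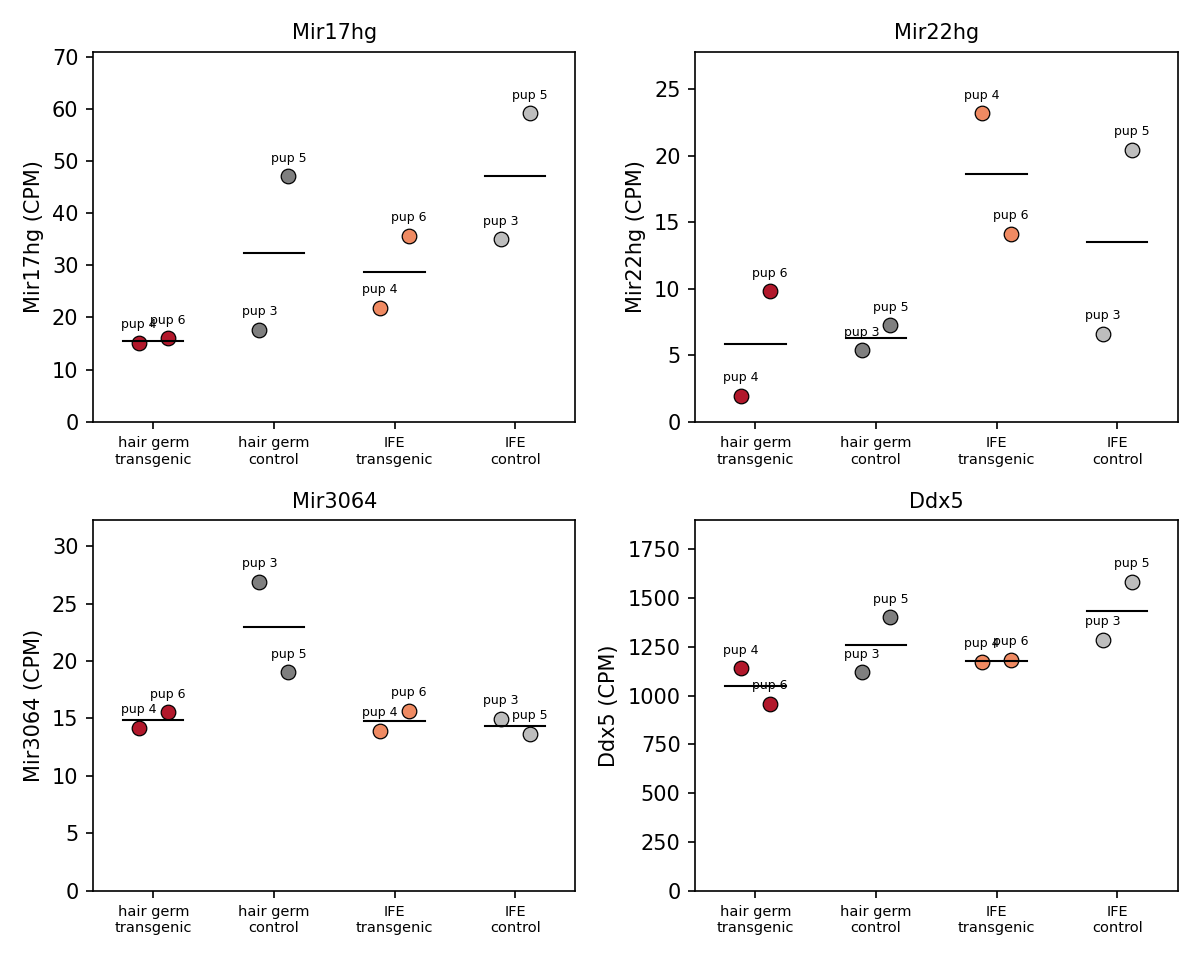
Mir17hg, Mir22hg, Mir3064 and its host gene Ddx5 in CPM, each on its own axis from 0, with 1 point per library labelled by pup and a line at the mean of each group of 2 pups. Mir3064 is highest in the 2 control hair germ libraries (26.9 and 19.0 CPM), and Mir22hg is lower in hair germ than in IFE of the same pup.

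By GENCODE annotation on the same build, 55 hairpins lay in an intron and 35 in an exon of a gene on the same strand, 17 lay between genes, 4 lay in a gene on the other strand and 2 had no coordinates. The density of reads over a hairpin was a median of 62.0% of the exon density of its gene for the 24 exonic hairpins whose gene was counted (range 11.0% to 4189%). For the 52 intronic hairpins it was 33.6% (range 3.62% to 23396%). Hairpins were chosen by having at least 10 summed counts, so these medians leave out thinner hairpins and are a description only. Whether reads that overlap a hairpin only in part were counted is not known. Both ranges are wide, so hairpins in genes of similar density could have very different counts. Reads over 2 counted features can be left out as ambiguous, and 0.123% to 0.305% of reads were.

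Mir1938 lies at chr12:40222712-40222811 on the minus strand in an intron of Ifrd1, a transcriptional regulator. It had 96 and 84 counts in transgenic hair germ, against 32 and 23 in control hair germ, and 43 and 107 in transgenic IFE, against 19 and 47 in control IFE. Transgenics were higher in CPM without overlap in both populations, with a log2 fold change of 2.13 (SE 0.67, edgeR adjusted p = 0.141) in hair germ and 0.93 (SE 0.67, edgeR adjusted p = 0.589) in IFE. Ifrd1 itself had a log2 fold change of -0.44 (SE 0.45, edgeR adjusted p = 0.658) in hair germ and -0.21 (SE 0.45, edgeR adjusted p = 0.909) in IFE. The hairpin and its host thus had opposite signs, and neither passed the test.

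Mir2137, at chrX:72992079-72992144 on the plus strand in an intron of Zfp185, had 85 and 33 counts in transgenic hair germ, against 0 and 0 in control hair germ, and 17 and 0 in transgenic IFE, against 3 and 0 in control IFE. Set against 3 counts over the control group, it was at least 53.0-fold higher in transgenic than in control hair germ, with an edgeR adjusted p of 0.104. That bound covers counting error only, not the spread between pups. Mir2137 was called under scaling by library size alone (edgeR adjusted p = 0.0270) and by DESeq2 (adjusted p = 0.0254). All 4 libraries with Mir2137 counts had a larger Rn45s share than every library without them. Among the 4, IFE of control pup 3 had the largest share but only 3 counts. The part of ribosomal RNA in the Mir2137 counts was not tested. Zfp185, which encodes an actin-associated LIM-domain protein, had 16.6 and 14.1 CPM in transgenic hair germ, against 24.6 and 31.0 in control hair germ, and 21.3 and 16.5 in transgenic IFE, against 46.0 and 44.1 in control IFE. Its log2 fold change was -0.85 (SE 0.33, edgeR adjusted p = 0.215) in hair germ and -1.26 (SE 0.33, edgeR adjusted p = 0.0421) in IFE, the sign opposite to that of the hairpin.

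Mir690 lies in an intron of Fgf12 at chr16:28599935-28600043 on the minus strand. It had 93 and 17 counts in transgenic hair germ, against 3 and 8 in transgenic IFE, and 36 and 8 in control hair germ, against 4 and 16 in control IFE. Hair germ over IFE was 3.31 (SE 1.12, edgeR adjusted p = 0.118) in log2 for transgenics and 0.61 (SE 1.17, edgeR adjusted p = 0.904) for controls. Hair germ of transgenic pup 4 held 50.3% of its counts, and without that library the transgenic value was 1.89. Fgf12 had only 45 counts over all libraries, fewer than the hairpin in its intron. Mir3109, in an intron of Anxa2 at chr9:69456944-69457031 on the plus strand, had 115 and 9 counts in transgenic hair germ, against 13 and 68 in control hair germ, and 32 and 33 in transgenic IFE, against 14 and 69 in control IFE. Its density was 10.3% of that of Anxa2, an abundant annexin of the epidermis, and the pups within hair germ groups differed more than the groups did.

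The phosphatase genes Ppp1r10 and Ppp2ca hold a further 2 of the most counted hairpins. Mir1894, in an intron of Ppp1r10, had 0 and 36 counts in transgenic hair germ, against 17 and 35 in control hair germ, and 25 and 40 in transgenic IFE, against 11 and 5 in control IFE. Mir3061, in an exon of Ppp2ca, had 35 and 3 counts in transgenic hair germ, against 46 and 5 in control hair germ, and 3 and 15 in transgenic IFE, against 0 and 4 in control IFE. For both, transgenic and control hair germ overlapped, and the IFE differences were not called (edgeR adjusted p = 0.614 and 0.796).

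Of 66 genes that hold a hairpin on the same strand and are not themselves microRNA loci, 64 were tested. Transgenic hair germ against control called 1 higher, Hadhb (1.56% of 64, against 0.952% of all genes). In IFE it called 3 higher, Arrb1, Cd74 and Cep170, and 2 lower, Mcm7 and Zfp185 (7.81% against 6.34%). Arrb1, Cd74 and Cep170 were also called lower in hair germ than in IFE of transgenics (4.69% against 4.64%). The shares were close to those of all genes. Mir25 in Mcm7 and Mir2137 in Zfp185 were tested and not called in IFE, while Mir1960 in Hadhb, Mir326 in Arrb1, Mir5107 in Cd74 and Mir350 in Cep170 did not pass the filter on low counts. Cd74 is an antigen-presentation gene of immune cells, and the immune markers given above moved in the same comparison.

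Among microRNAs known from skin, Mir24-2 was read in all 8 libraries. It lies at chr8:84208815-84208921 on the plus strand, beside Mir23a and Mir27a. Mir24-2 had 20 and 32 counts in transgenic hair germ, against 43 and 27 in control hair germ, and 14 and 27 in transgenic IFE, against 7 and 6 in control IFE. The other locus of the same mature strand, Mir24-1 at chr13:63301208-63301275 on the plus strand, had 7 and 34 counts in transgenic hair germ, against 52 and 0 in control hair germ, and 2 and 19 in transgenic IFE, against 0 and 1 in control IFE. Neither was called between genotypes in IFE, where both were higher in transgenics without overlap in CPM (log2 1.38, SE 1.16, edgeR adjusted p = 0.661 for Mir24-2). Short reads from identical mature stretches cannot be told apart between these loci and are counted only where a read extends beyond them.

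The neighbours of the Mir24 loci were thinner. Mir23a had 15 and 3 counts in transgenic hair germ, against 0 and 0 in control hair germ, and 5 and 12 in transgenic IFE, against 0 and 8 in control IFE. In hair germ Mir27a had 0 and 0 counts in transgenics against 30 and 9 in controls, while in IFE it had 3 and 3 counts in transgenics against 0 and 0 in controls. Mir27b, beside Mir24-1, had 16 and 0 counts in transgenic hair germ, against 0 and 8 in control hair germ, and 15 and 30 in transgenic IFE, against 7 and 11 in control IFE. Hairpins of 1 cluster thus had their counts in different libraries.

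Mir205, whose mature strand is needed for growth of skin progenitors in mice, lies at chr1:193507463-193507530 on the minus strand. It had 23 and 0 counts in transgenic hair germ, against 0 and 65 in control hair germ, and 2 and 7 in transgenic IFE, against 4 and 6 in control IFE. The log2 fold change was -1.03 (SE 1.19, edgeR adjusted p = 0.703) in hair germ and -0.39 (SE 2.08, edgeR adjusted p = 0.977) in IFE. Mir196a-1, of the Hoxb cluster, had 0 and 17 counts in transgenic hair germ, against 0 and 22 in control hair germ, and 0 and 5 in transgenic IFE, against 2 and 21 in control IFE. Mir125b-2, known for restraining differentiation of skin stem cells, had 23 and 0 counts in transgenic hair germ, against 0 and 0 in control hair germ, and 0 and 1 in transgenic IFE, against 4 and 8 in control IFE.

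Of 35 listed skin microRNA symbols found in the files, 21 had any count, 14 were members and 7 were tested. The hairpins of miR-21, miR-22, miR-214 and miR-184 had 0 counts in all libraries, and Mir203 and Mir31 had 2 each. The median log2 fold change of the 7 tested was 0.06 in hair germ and 0.85 in IFE for transgenic against control, against 0.04 and -0.01 for all genes, and edgeR called 0 in each of the 5 comparisons, as did DESeq2. At most 1 of the 7 had an unadjusted edgeR p under 0.05 in any comparison. Over all genes, edgeR called 0.00705% to 6.34% by comparison, and 8.09% to 18.5% had an unadjusted p under 0.05.

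The 6 loci with the let-7 seed, a family known for promoting differentiation, summed to 6 and 57 counts in transgenic hair germ, against 12 and 113 in control hair germ, and to 22 and 42 in transgenic IFE, against 12 and 56 in control IFE. In raw counts, pup 6 had more than pup 4 and pup 5 more than pup 3 in both populations, but depth differed. For pups 4 and 6, 1 count was 0.135 and 0.0756 CPM in IFE and 0.0880 and 0.121 CPM in hair germ. For pups 3 and 5 it was 0.174 and 0.0849 CPM in IFE and 0.0879 and 0.0664 CPM in hair germ. Mir98, on the X chromosome in an intron of Huwe1, had 0 and 40 counts in transgenic hair germ, against 0 and 0 in control hair germ, and 5 and 19 in transgenic IFE, against 0 and 25 in control IFE. Mirlet7f-1 had 0 and 17 in transgenic hair germ, against 0 and 16 in control hair germ, and 11 and 5 in transgenic IFE, against 0 and 17 in control IFE. Mirlet7c-1 stood at 48 counts in hair germ of control pup 5, with 2 and 1 in transgenic IFE and 0 in the other 5 libraries. Reads at Mir98 and Mirlet7c-1 thus came mostly from 1 or 2 libraries, while Mirlet7f-1 had counts in 5, with 25.8% in its highest.

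The other let-7 loci followed the same uneven pattern. Mirlet7d had 0 and 0 counts in transgenic hair germ, against 12 and 0 in control hair germ, and 0 and 16 in transgenic IFE, against 6 and 7 in control IFE. Mirlet7e had 6 and 0 in transgenic hair germ, against 0 and 22 in control hair germ, and 3 and 1 in transgenic IFE, against 2 and 7 in control IFE. Mirlet7a-1 had 0 and 0 in transgenic hair germ, against 0 and 27 in control hair germ, and 1 and 0 in transgenic IFE, against 4 and 0 in control IFE. The 3 let-7 loci tested gave a median log2 fold change of 0.57 in hair germ and -0.24 in IFE for transgenic against control, against 0.04 and -0.01 for all genes. In edgeR and in DESeq2, 0 of the 3 were called, and at most 1 had an unadjusted edgeR p under 0.05. The edgeR shares of all genes were 0.00705% to 6.34% called and 8.09% to 18.5% at that unadjusted threshold.

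**Figure D5:**
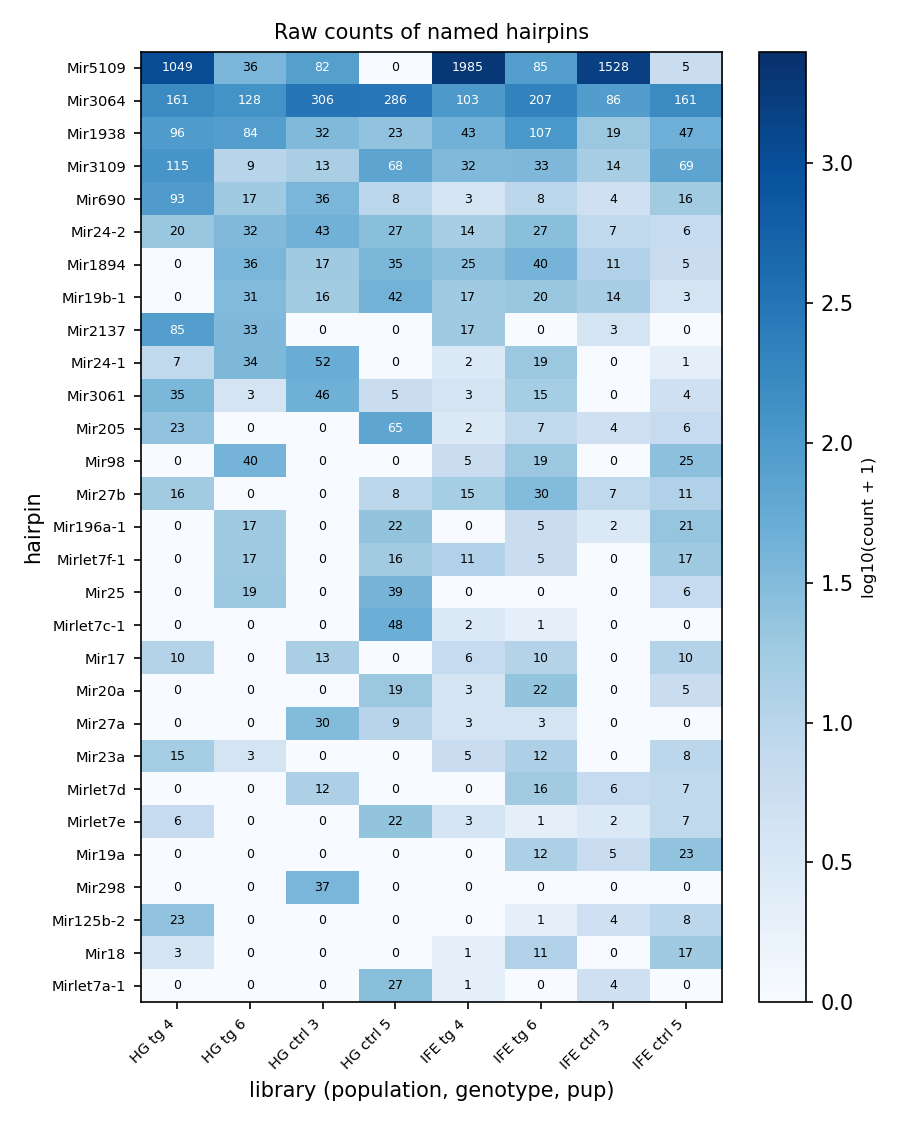
Raw counts of 29 named hairpins in the 8 libraries (HG, hair germ; tg, transgenic; ctrl, control; the number is the pup), with colour by log10(count + 1) and the count printed in each cell. Mir3064 and Mir1938 have counts in every library, while most let-7 and miR-17-92 hairpins have 0 in several libraries.

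Mir221 and Mir222, named after their values were seen, lie 678 bases end to end at chrX:19146294-19146971 on the minus strand and share a seed. Together they had 0 counts in all 4 hair germ libraries, against 7 and 32 in transgenic IFE and 4 and 29 in control IFE. Set against 3 counts over hair germ, the IFE level pooled over pups and genotypes was 29.0-fold higher. That bound covers counting error only, not the spread between pups. Transgenic pup 6 and control pup 5 held 32 and 29 of the 72 IFE counts. The share of other symbols at 0 in all 4 hair germ libraries was not computed. The fit called neither population difference of Mir222 (edgeR adjusted p = 0.222 in transgenics and 0.576 in controls), and Mir221 did not pass the filter.

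Loci with reads in a single group could not be given a fold beyond such bounds, and genes read as thinly as the hairpins were often in the same state. In hair germ, 11 of 116 loci (9.48%) had counts in both transgenic pups and 0 in both controls, with over 3 counts in all, against 3.82% of all 16111 symbols with at least 10 counts and 13.2% of other symbols with 10 to 200. The reverse held for 5 loci (4.31%), against 0.416% of all and 1.4% of the thinly read symbols. In IFE, 6 loci (5.17%) were read in both transgenic pups and neither control, against 3.26% and 12.5%, and 0 loci in both controls and neither transgenic, against 0.149% and 0.587%.

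Between populations of transgenics, 3 loci (2.59%) were read in hair germ of both pups and not in IFE, against 0.881% of all symbols and 3.4% of the thinly read ones. The reverse held for 17 loci (14.7%), against 2.76% and 10.1%. In controls, 2 loci (1.72%) were read in hair germ of both pups alone, against 0.422% and 1.57%, and 11 (9.48%) in IFE of both pups alone, against 2.58% and 8.27%. More loci were read in IFE alone than in hair germ alone, and the thinly read symbols at large showed the same order.

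The listed microRNAs that mark other cell types were nearly unread. Of 10 listed myeloid symbols 2 had counts, Mir511 with 3 and 2 in transgenic IFE and Mir155 with 1, and Mir223, Mir142 and Mir150 had 0 everywhere, although the immune messenger RNAs were high in transgenic IFE. Of 12 listed muscle, endothelial and erythroid symbols 2 had counts, 3 for Mir133a-1 and 2 for Mir486. The list held Mir1a-1 and Mir1a-2 but not Mir1b, which lies in an intron of Mib1. Mir1b had 0 and 0 counts in transgenic hair germ, against 34 and 21 in control hair germ. In IFE it had 0 and 4 in transgenics, against 0 and 0 in controls. Of 24 symbols of imprinted loci 4 had counts. Among these Mir298 had 37 counts in hair germ of control pup 3 and 0 in the other 7 libraries. Mir434 likewise had 26 counts in hair germ of transgenic pup 6 and 0 elsewhere.

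Genes that make and load microRNAs were not called in any comparison. Of 16 found, among them Drosha, Dgcr8, Xpo5, Dicer1 and the Argonautes, 14 were tested and edgeR called 0 in each of the 5 comparisons, as did DESeq2. Their median log2 fold change was -0.21 in hair germ and -0.30 in IFE for transgenic against control, where all genes had 0.04 and -0.01. Between genotypes edgeR called 0.952% of all genes in hair germ and 6.34% in IFE, so 0 of 14 lay near these shares. At an unadjusted edgeR p under 0.05 they numbered 2 in hair germ and 1 in IFE, against 17.1% and 17.3% of all genes. For hair germ against IFE the medians were 0.10 in transgenics and -0.01 in controls, with 1 at an unadjusted p under 0.05 in each.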

How the data were processed

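Total RNA of 8 sorted samples was made into libraries with a SMARTer stranded low-input kit, per the labels' protocols. The submitters' processing notes name TopHat, HTSeq and DESeq2 and the build mm10 (GRCm38); no source used here gives their versions or whether strand was counted. The deposited count files hold 1 raw read count per symbol and library, and the 5 HTSeq summary lines were left out. The authors' deposited matrix of normalised signal was used only as a check: all 116 members equalled count over a constant per library, within 0.01 counts.

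Counts were scaled by TMM, filtered with filterByExpr to 14176 genes and fitted as 4 group means with edgeR 4.0.16 in R 4.3.3 (glmQLFit, legacy set to FALSE, then glmQLFTest, two-sided, Benjamini-Hochberg adjustment over all genes tested, threshold 0.05). The SE was taken as the size of the log2 change divided by the root of F. The fit has 4 residual degrees of freedom. The code was tested on simulated data. Alternatives were DESeq2 1.42.0, other scalings and filters, libraries left out, and the pup as a block. Pairing comes from the labels, which give 1 animal per number; deviations from group means correlated at 0.0868 in transgenics and 0.117 in controls over 14176 genes.

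Hairpins were placed by RefSeq and GENCODE vM21 coordinates. Per-kilobase densities divide summed counts by hairpin or exon bases. Named loci were those called in any comparison, the 15 with most counts, and listed loci with at least 30 counts, 32 in all. Other microRNA loci and host genes that the text names were picked after their values were seen. The members and lists were chosen with earlier results of these data known.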

Additional observations from a re-analysis of the deposited data

Results flagged for a closer look

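Mir27a, with 45 counts in all, had its counts on opposite sides in the populations, with 0 and 0 counts in transgenic hair germ, against 30 and 9 in control hair germ, and 3 and 3 in transgenic IFE, against 0 and 0 in control IFE, where a 0 allows up to 3 counts. It did not pass the main filter, so the difference between the populations was not tested there. With a filter of at least 10 summed counts, edgeR gave the difference of effects an adjusted p of 0.722.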

How the results depend on the processing

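The call of miR200primary between genotypes held under every alternative run, in both populations. In hair germ 2 microRNA loci were called with scaling by library size only and with the DESeq2 Wald test, the second being Mir2137. With the pup as a replicate block, 1 locus, Mir5109, was called in hair germ against IFE of transgenics, of controls and in the difference of effects; the cause was not tested. It changed no other call of a microRNA locus. Leaving out 1 library at a time gave 0 to 1 calls in hair germ against IFE of controls and 0 to 1 in the difference of effects, 1 being miR200primary without hair germ of control pup 5. The log2 difference of miR200primary between transgenic populations changed sign at a size near 0: -0.0049 with DESeq2 size factors, -0.0043 with the DESeq2 Wald test, -0.0096 with the filter of 10 summed counts, -0.0405 with no filter, -0.14 without the libraries rich in Rn45s, -0.0232 with the replicate block, and -0.36 to 0.22 with 1 library left out. Mir5109 turned to 2.96 in transgenics and 2.88 in controls without those libraries, although it was lower in hair germ than in IFE within every pup. Hair germ of the same pups stayed in that fit. With 1 library left out Mir5109 ranged from -5.00 to 2.93 in transgenics and from -13.40 to 2.94 in controls. Its difference of effects ranged from -4.41 (without IFE of control pup 3) to 11.89. Depth limits all of this: most hairpins had few counts and 2 pups a group, so a locus that was not called is not shown to be equal.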
